A study of Mus musculus with 6 samples.

Results

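Semaphorins, plexins and neuropilins are the ligands and receptors of one axon guidance system, and 31 of the 23337 gene symbols in the table belong to it. They were found by name alone, as every symbol beginning with Sema3 to Sema7 or with Plxn, plus Nrp1 and Nrp2. There were 20 semaphorin ligands and 11 receptors, of which 9 were plexins and 2 neuropilins. The RNA was that of sorted dopaminergic neurons from the SNc, the compact part of the substantia nigra in the ventral midbrain, which innervates mainly the dorsal striatum. Neurons expressing Sox6 (Sox6+) were sorted by GFP, and neurons that do not express it (Sox6-) were sorted by mCherry. There were 3 libraries a group, with the numbers 103, 825 and 1211 used in both groups. All came from adult C57BL/6 mice that carried Sox6-FSF-Cre, Th-2A-Flpo and RC-Frepe. In this intersectional design the Flp recombinase is made where Th is active, Flp alone turns on mCherry, and the Cre made from Sox6 after Flp has acted switches a cell to GFP. The labels give neither the number of animals nor whether libraries came from separate ones, so the p-values rest on the spread among these libraries, which may be technical. The study asked how these subsets of SNc dopaminergic neurons differ.

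Semaphorins are signals that repel or attract growing axons. Class 3 members are secreted and mostly bind neuropilins, which lack a signalling domain of their own and act together with plexin-A proteins. Members of classes 4 to 6 span the membrane, class 7 is anchored to it by a lipid, and these bind plexins directly. Plexins act through a cytoplasmic domain that inactivates Ras-family GTPases, and their signals change the cytoskeleton. In cultured rodent tissue, Sema3c attracts and Sema3f repels axons of developing midbrain dopaminergic neurons, and in the adult brain semaphorins are also found at synapses.

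Values are normalized read counts, that is, reads per gene divided by one size factor per library. The 6 libraries held from 10397924 to 12952768 reads in genes. Sox6, which defines the sort, had 841, 461 and 389 in Sox6+ libraries 103, 825 and 1211, against 104, 18.1 and 36.2 in the Sox6- libraries of the same numbers, without overlap. For the 10 markers of dopaminergic neurons, the library numbered 103 summed to 102840 when Sox6+ but only 42318 when Sox6-. Number 825 had sums of 200037 (Sox6+) against 128692 (Sox6-), and number 1211 had 173297 against 37773. Sox6- libraries 103 and 1211 thus lay below every Sox6+ library, while Sox6- library 825 lay within the Sox6+ range. Th and Slc6a3 were present in all 6. Sox6+ library 825 stood apart from the rest. It held macrophage transcripts, with 8 of 11 markers above 0 and a sum of 28661 against 18.1 to 77.9 in the other libraries, of which Lyz2 gave 26494. Sox6+ library 103 had 6 of these markers above 0, and Aif1, C1qa and C1qb were at 0 in library 825. Its 6 oligodendrocyte markers summed to 2107, mostly Mbp at 1944, against 264 to 392 elsewhere, and its 6 GABAergic markers summed to 5.69. Where leaving out this library moved the log2 difference of a member by over 1.5 times, the value without it is also given.

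In Sox6+ neurons most semaphorin ligands had lower values than in Sox6- neurons, but no gene of the family passed the main test. The tested members whose groups did not overlap were the ligands Sema3a, Sema3f, Sema4a and Sema5a and the receptors Plxnc1 and Plxna4, lower in all Sox6+ libraries, and Plxna1, higher in all of them. Of the 29 members with any read, 22 had the lower mean in Sox6+ neurons and 7 the higher. Testing with limma was limited to genes whose 6 values averaged 10 or more, on the log2(value + 1) scale, which left 26 members, 17 ligands and 9 receptors. None had an adjusted p under 0.05 (limma, Benjamini-Hochberg over 13175 genes), where 0.304% of all tested genes did. Sox6, which defines the sort, did not pass either, with an adjusted p of 0.0528 (limma), so a gene that fails this test may still differ. Neither edgeR nor DESeq2 on the reads recovered from the values called any member. These fits left the library numbers out. When the numbers entered the limma fit as a block, Sema5a alone of the members passed, at an adjusted p of 0.0262. That fit called 267 of all tested genes, and edgeR with the same block called no member. At an unadjusted limma p under 0.05 there were 8 members (30.8% of those tested), 7 of them lower and 1 higher in Sox6+ neurons, against 11.4% of all tested genes. Non-overlapping groups with Sox6+ below Sox6- were found for 6 members (23.1%), against 9.19% of all tested genes, and 1 member (3.85%) had the Sox6+ libraries above all Sox6- libraries, against 7.86%. The 8 and the 6 members both include Sema3a and Sema3f, which passed the filter through their Sox6- values alone, so these shares are descriptions. In the authors' deposited table, where 2.83% of genes with an adjusted p were under 0.05, the only member under it was Sema3f at 0.0446.

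**Figure D1:**
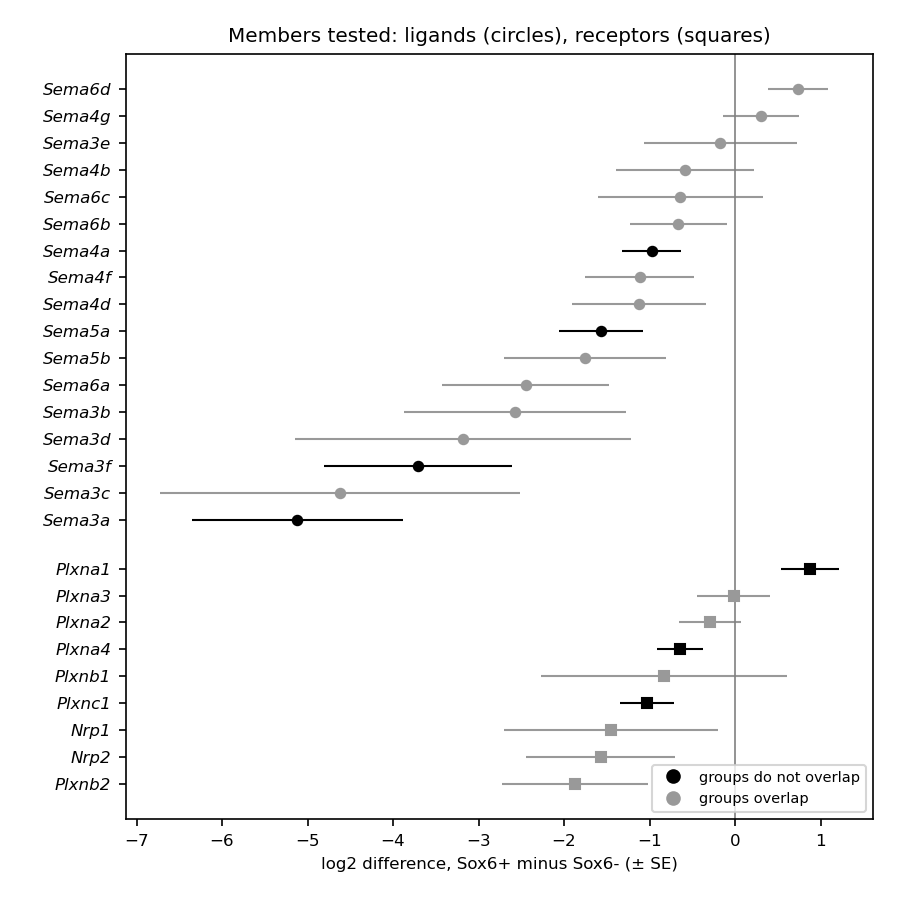
Differences of the 26 tested members on the log2(normalized read count + 1) scale, Sox6+ minus Sox6-, with standard errors from limma. Ligands are circles and receptors squares, and black marks members whose 3 Sox6+ values lie on one side of the 3 Sox6- values. Of the 26 points, 23 lie left of 0 (Sema3e, Plxna3 and Plxnb1 cross it with quantile normalization), and Sema6d, Sema4g and Plxna1 lie to its right.

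The 17 tested ligands had a median log2 difference (Sox6+ minus Sox6-) of -1.12, with 15 negative and 2 positive, and Sema3e turned positive with quantile normalization. The 9 tested receptors had a median of -0.83, with 8 negative and 1 positive, and there Plxna3 and Plxnb1 turned positive. That median is the value of Plxnb1, a gene of 30 reads in Sox6+ and 31 in Sox6- libraries, and was -0.44 with edgeR and -0.42 with DESeq2. On the linear scale Sema3e, Plxna3 and Plxnb1 had the higher mean in Sox6+ neurons. Without Sox6+ library 825 the medians were -1.09 for ligands and -0.77 for receptors. Over all 13175 tested genes the median was -0.02, with 6836 negative. These counts and medians are descriptions: Sema3a, Sema3c and Sema3f had a mean under 10 in Sox6+ neurons and passed the filter through their Sox6- values alone, and Plxnb1 passed it through Sox6+ neurons alone. The 5 members that were not tested were Sema3g and Plxnb3, at 0 in all 6 libraries, and Sema4c, Sema7a and Plxnd1.

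The 6 tested genes of the secreted class 3 ligands had a median log2 difference of -3.44, and the medians were -0.97 for class 4, -1.66 for class 5 and -0.65 for class 6. No order of the classes is read from these medians, since 3 of the class 3 genes passed the filter through Sox6- neurons alone, and the ratio of summed values, Sox6+ over Sox6-, was 0.344 for class 3 and 0.347 for class 5. Summed over its 7 genes, class 3 had 350, 26.2 and 64.7 in Sox6+ libraries 103, 825 and 1211, against 501, 205 and 575 in the Sox6- libraries of those numbers. The means were 147 ± 177 in Sox6+ neurons and 427 ± 195 in Sox6- neurons (SD, n = 3 each), and the groups overlapped, because Sox6+ library 103 lay above Sox6- library 825. All 6 tested class 3 genes had a negative log2 difference in the limma fit, and that of Sema3e turned positive with quantile normalization, edgeR and DESeq2.

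Sema3a, the best known repellent of the class and a ligand of neuropilin-1, had 0, 0 and 16.6 in Sox6+ libraries 103, 825 and 1211, against 101, 71.5 and 99.2 in the Sox6- libraries. It was at 0 in 2 Sox6+ libraries and low in the other, and present at similar values in every Sox6- library, so the groups were apart. On the log2 scale Sox6+ neurons lay lower by a difference of -5.12 (SE 1.23), with an unadjusted p of 0.00227 and an adjusted p of 0.15 (limma). In reads, 18 in the Sox6+ libraries together stood against 283 in the Sox6- libraries, a 15.8-fold ratio of Sox6- over Sox6+ per read sequenced, with an exact 95% binomial interval of 9.83 to 27.1 that covers counting error only. All 18 reads were those of Sox6+ library 1211. Without it Sema3a was at least 59.8-fold lower in Sox6+ neurons, with a floor of 3 reads for the group and again for counting error only. Without any 1 library its log2 difference ran from -6.5 to -4.43. With 0.5 or 8 added to the values in place of 1, Sema3a had -5.79 or -3.07. With edgeR Sema3a had -3.98 and with DESeq2 -4.01. An exact permutation test of the means, two-sided, gave p = 0.1 for it and for every other tested member with non-overlapping groups, which is the minimum for 3 libraries against 3. The gene lies on chromosome 5 from 13125414 to 13602565, plus strand (GRCm38).

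Sema3f, which binds neuropilin-2 and repels axons, had 0, 7.97 and 5.54 in the Sox6+ libraries, against 40.3, 43.3 and 70.5 in the Sox6- libraries. Even the lowest Sox6- value was several times the highest Sox6+ value. Its log2 difference was -3.71 (SE 1.1), with an adjusted p of 0.241 (limma). By reads, the 13 of the Sox6+ libraries stood against 161 of the Sox6- libraries, a ratio of Sox6- over Sox6+ of 12.5 with an exact interval of 7.09 to 23.9. The ratio was 8.32 without Sox6+ library 103 and 19.0 without Sox6+ library 825. In the authors' deposited table its log2 fold change was 3.52, taken as Sox6- over Sox6+. The gene lies from 107681500 to 107710475 on the minus strand of chromosome 9.

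Sema3c, the attractant for dopaminergic axons in culture, had no read in any Sox6+ library, against 61.4, 0 and 236 in Sox6- libraries 103, 825 and 1211. It was thus present in 2 of 3 Sox6- libraries. Over the groups, 0 reads stood against 319. With a floor of 3 reads for the whole group, that is at least 107-fold lower per read sequenced in Sox6+ neurons. This bound covers counting error only, not the spread between libraries, and was 67.4 to 75.3 without 1 of the Sox6+ libraries. Most of the 319 reads came from Sox6- library 1211, without which the bound was 32.6-fold and the log2 difference -2.98, against -4.62 with all libraries. The adjusted p was 0.446 (limma). Sema3b, another neuropilin ligand, had 10.9, 0 and 25.9 in the Sox6+ libraries, against 17.3, 43.3 and 81.6 in the Sox6- libraries, and the groups overlapped. Its log2 difference was -2.57 with all libraries and -1.19 without Sox6+ library 825.

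Sema3d, a secreted ligand that binds neuropilins, was high in library 103 of both groups, with 216, 0 and 0.924 in Sox6+ libraries 103, 825 and 1211, against 197, 25.2 and 59.4 in the Sox6- libraries. Sema3e, which binds plexin-D1 without a neuropilin, had 123, 18.2 and 15.7 in the Sox6+ libraries, against 84.4, 22.2 and 27.8 in the Sox6- libraries. For each of these genes the highest value in either group was that of library 103. Their adjusted p were 0.576 for Sema3d and 0.961 for Sema3e (limma). Without Sox6+ library 825 the log2 difference was -1.73 for Sema3d, against -3.18 with all libraries, and 0.24 for Sema3e, against -0.17. Sema3g was at 0 in all 6 libraries.

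Markers of other neurons also differed between the libraries. The 6 GABAergic markers summed to between 5.69 and 7070 in the Sox6+ libraries and between 4460 and 15562 in the Sox6- libraries, and these ranges overlapped. Of these markers, Sst was at 0 to 1.97 in the Sox6+ libraries and at 3164 to 5814 in the Sox6- libraries, while Pvalb had 401, 0 and 869 in Sox6+ libraries 103, 825 and 1211, against 60.4, 66.5 and 128 in the Sox6- libraries. The 3 glutamatergic markers summed to between 163 and 999 in the Sox6+ libraries and between 2263 and 4815 in the Sox6- libraries, mostly from Slc17a6. In Sox6+ library 825, where Gad1, Gad2 and Sst were at 0, 7 members of the family were at 0, among them Sema3a, Sema3b, Sema3c and Sema3d. In Sox6+ library 103, where Gad1, Gad2 and Sst had 4797, 1679 and 1.97, 8 members were at 0, among them Sema3a, Sema3c and Sema3f. Sox6+ library 1211 had 4 members at 0, and Sox6- libraries 103, 825 and 1211 had 3, 4 and 2. All the counts of members at 0 include Sema3g and Plxnb3, at 0 in all 6 libraries. The part of GABAergic and glutamatergic transcripts in the class 3 values was not tested. The dopaminergic markers summed lowest in Sox6- libraries 103 and 1211. Members such as Sema3c, Sema6a, Plxnb2 and Nrp2 had higher values in both of these than in Sox6- library 825. Others, such as Sema5b, Plxna4 and Plxnc1, were highest of the Sox6- libraries in library 825. How far the dopaminergic content of a library bears on the values of the members was not tested. In such bulk libraries, fewer cells of a type and less RNA per cell cannot be told apart.

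**Figure D2:**
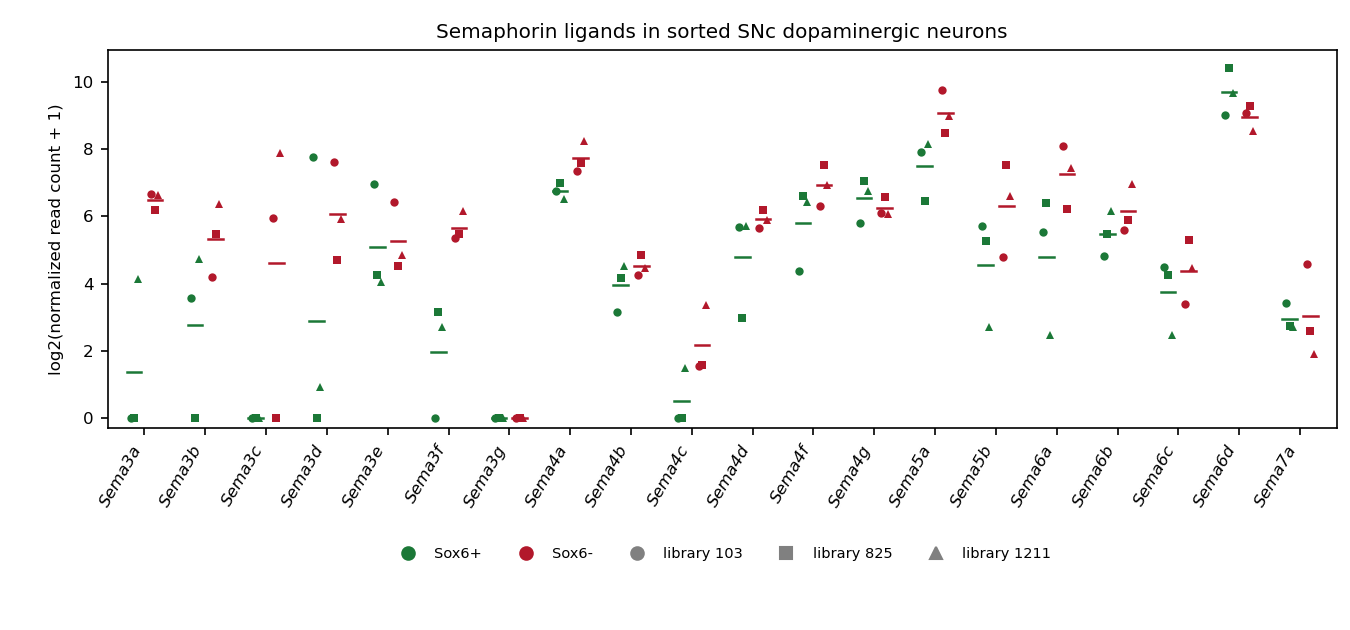
Values of the 20 semaphorin genes in each library, as log2(normalized read count + 1), with Sox6+ in green left of Sox6- in red, marker shapes for library numbers and a line at each group's mean on the log2 scale. Sema3a, Sema3f, Sema4a and Sema5a separate the groups among tested genes, while Sema3d and Sema3e are highest in library 103 of either group.

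The transmembrane class 5 ligand Sema5a, which carries thrombospondin repeats and can attract or repel axons, was lower in all Sox6+ libraries, with 243, 86.5 and 284 in numbers 103, 825 and 1211, against 866, 357 and 509 in the Sox6- libraries. The values spread more than 2-fold within each group, and the lowest Sox6- library was still above the highest Sox6+ library. Sema5a had a log2 difference of -1.57 (SE 0.49) and an adjusted p of 0.278 (limma), and the difference was -1.04 without Sox6+ library 825, the lowest of the 6. With the library number as a block the adjusted p was 0.0262 with limma and 0.0944 with edgeR. Sema5a lies from 32244810 to 32696341 on the plus strand of chromosome 15. Its relative Sema5b had 51.3, 37.6 and 5.54 in the Sox6+ libraries, against 26.9, 185 and 96.5 in the Sox6- libraries, where library 103 fell within the Sox6+ range.

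Among the tested class 4 ligands, which bind plexin-B proteins and other receptors, Sema4a was the one whose groups did not overlap. It had 107, 126 and 90.6 in the Sox6+ libraries, against 161, 190 and 304 in the Sox6- libraries. The Sox6+ libraries lay close together, while Sox6- library 1211 was well above the rest. Its log2 difference was -0.97 (SE 0.34), with an adjusted p of 0.334 (limma). The gene lies on chromosome 3 from 88435959 to 88461182, minus strand. On that strand it shares 73 exon bases with the annotated gene Mir7011, which is not among the symbols of the table.

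The other tested class 4 genes overlapped between the groups. Sema4f, which binds the synaptic scaffold PSD-95, averaged 67.5 ± 41.7 in Sox6+ neurons and 128 ± 54.2 in Sox6- neurons (SD, n = 3 each). Sema4d, the ligand of plexin-B1, averaged 36.3 ± 25.5 in Sox6+ neurons and 59.9 ± 10.9 in Sox6- neurons, and Sox6+ library 825 alone was low at 6.83. The log2 difference of Sema4d was -1.12 with all libraries and -0.21 without that one. Sema4b averaged 15.7 ± 7.24 in Sox6+ neurons and 22.6 ± 5.1 in Sox6- neurons. Sema4g averaged 98.5 ± 39.3 in Sox6+ neurons and 75.9 ± 15.4 in Sox6- neurons, with a log2 difference of 0.3, or 0.05 without Sox6+ library 825. Sema4c, with 2 reads over the Sox6+ libraries and 14 over the Sox6- ones, was too low to test, and its groups did not overlap either.

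The class 6 ligands, which bind plexin-A proteins, did not share a direction. Sema6d had 521, 1365 and 808 in Sox6+ libraries 103, 825 and 1211, against 536, 621 and 371 in the Sox6- libraries. It was the ligand of highest value per kilobase of exon in 5 of 6 libraries, and its groups overlapped through Sox6+ library 103. Sema6d had a log2 difference of 0.74 (SE 0.35) and an adjusted p of 0.458 (limma), and the difference was 0.38 without Sox6+ library 825, the library with macrophage and Mbp transcripts. Whether these transcripts bear on its Sema6d value was not tested.

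Sema6a, a ligand of plexin-A2 and plexin-A4, had the lower mean in Sox6+ neurons, with 45.4, 83.1 and 4.62 in the Sox6+ libraries against 271, 73.5 and 173 in the Sox6- libraries. Sox6+ library 825 lay above Sox6- library 825, so the groups overlapped. Its log2 difference was -2.45 (SE 0.98), with an adjusted p of 0.407 (limma), and it ranged from -3.24 to -1.29 when single libraries were left out. Sema6b averaged 47.0 ± 21.6 in Sox6+ neurons and 76.6 ± 41.7 in Sox6- neurons, and Sema6c averaged 14.8 ± 9.03 in Sox6+ and 23.1 ± 14.4 in Sox6- neurons (SD, n = 3 each). Sema7a, the lipid-anchored ligand of plexin-C1, averaged 7.03 ± 2.45 in Sox6+ and 10.3 ± 11.1 in Sox6- neurons and lay under the filter.

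Of the 9 tested receptors, 3 had groups that did not overlap: Plxnc1 and Plxna4 lower, and Plxna1 higher, in Sox6+ neurons. Over all tested genes 9.19% were apart with Sox6+ lower and 7.86% with Sox6+ higher. Summed over the 4 genes, the plexin-A receptors came to 828 ± 252 in Sox6+ neurons and 840 ± 88.3 in Sox6- neurons (SD, n = 3 each), and the libraries of the groups overlapped. Within that sum, Plxna1 and Plxna4 differed in opposite directions.

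Plxnc1, the receptor of Sema7a, which in developing mouse dopaminergic neurons takes part in sorting axons between striatal targets, had 366, 159 and 204 in Sox6+ libraries 103, 825 and 1211, against 416, 536 and 461 in the Sox6- libraries. All Sox6- values lay above all Sox6+ values, with Sox6+ library 103 the nearest to them. With all libraries the log2 difference was -1.03 (SE 0.32) and the adjusted p 0.264 (limma). Without Sox6+ library 103 the log2 difference was -1.37 and the adjusted p 0.0494, while over all libraries left out singly the adjusted p ran up to 0.755, without Sox6- library 1211. Plxnc1 lies on chromosome 10 from 94790866 to 94944835, minus strand. On that strand it shares 115 exon bases with the annotated gene Gm48718, which is not among the symbols of the table.

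Plxna4, which signals for Sema3a with neuropilin-1 in peripheral neurons of the mouse, had 225, 264 and 216 in the Sox6+ libraries, against 274, 470 and 380 in the Sox6- libraries. The gap between the groups was narrow, with Sox6+ library 825 just under Sox6- library 103. Plxna4 had a log2 difference of -0.64 (SE 0.27) and an adjusted p of 0.412 (limma). Plxna1, a partner of neuropilins and a receptor of Sema6d, had 227, 509 and 275 in the Sox6+ libraries, against 150, 210 and 162 in the Sox6- libraries. Its log2 difference was 0.88 (SE 0.34), with an adjusted p of 0.387 (limma), and was 0.53 without Sox6+ library 825, which held the highest value. Plxna1 spans 89316314 to 89362620 and Plxna4 32144268 to 32588192, both on the minus strand of chromosome 6, and each shares exon bases with an annotated gene on the opposite strand that is not among the symbols of the table (Gm26811 for Plxna1 and Plxna4os3 for Plxna4).

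The remaining plexin-A genes overlapped between the groups. Plxna2 averaged 169 ± 59.1 in Sox6+ neurons and 204 ± 52.2 in Sox6- neurons, and Plxna3, which with neuropilin-2 transmits Sema3f, averaged 87.1 ± 29.9 in Sox6+ neurons and 86.5 ± 24.0 in Sox6- neurons (SD, n = 3 each). Leaving out Sox6+ library 825 gave -0.54 for Plxna2, against -0.3 with all libraries, and -0.25 for Plxna3, against -0.02 (log2 differences). Of the plexin-B receptors, Plxnb2 had 5.92, 59.2 and 34.2 in the Sox6+ libraries, against 171, 45.3 and 89.0 in the Sox6- libraries, with overlap at number 825. Plxnb1 averaged 10.7 ± 12.1 in Sox6+ neurons and 9.96 ± 0.32 in Sox6- neurons. Its log2 difference was -0.83 with all libraries and -1.84 without Sox6+ library 825. Plxnb3 was at 0 throughout. Plxnd1, the receptor of Sema3e, had reads in Sox6+ library 825, at 26.2, and in Sox6- library 1211, at 8.35, and in no other. Of the 29 members with any read, 6 had their highest value of all libraries in Sox6+ library 825. These members were Plxna1, Plxna3, Plxnb1, Plxnd1, Sema4g and Sema6d. The share of all genes that were highest in that library was not counted. The sum of the macrophage markers was also highest there, though Aif1, C1qa, C1qb and P2ry12 were higher in another library. The part of macrophage transcripts in the values of these members was not tested.

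Nrp1, the neuropilin that binds Sema3a and vascular endothelial growth factor, had 234, 151 and 6.47 in Sox6+ libraries 103, 825 and 1211, against 177, 174 and 173 in the Sox6- libraries. The Sox6- libraries were nearly equal, while Sox6+ library 1211 was far below all others. The log2 difference was -1.45 with all libraries and 0.11 without that library, and the adjusted p was 0.7 with all of them (limma). Nrp2, the neuropilin that binds Sema3f, had 133, 29.6 and 15.7 in the Sox6+ libraries, against 170, 43.3 and 237 in the Sox6- libraries. In both groups library 825 was below library 103, and the groups overlapped, with an adjusted p of 0.528 (limma). Endothelial cells also make neuropilins. Of the endothelial markers, Cldn5 and Cdh5 were at 0 in all 6 libraries. Pecam1 reached 17.8 in Sox6+ library 103, Flt1 19.4 in Sox6+ library 825 and Slco1c1 43.4 in Sox6+ library 1211. The 6 endothelial markers summed to between 21.6 and 51.7 in the Sox6+ libraries and between 0.96 and 12.1 in the Sox6- libraries. The part of endothelial cells in the neuropilin values was not tested.

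**Figure D3:**
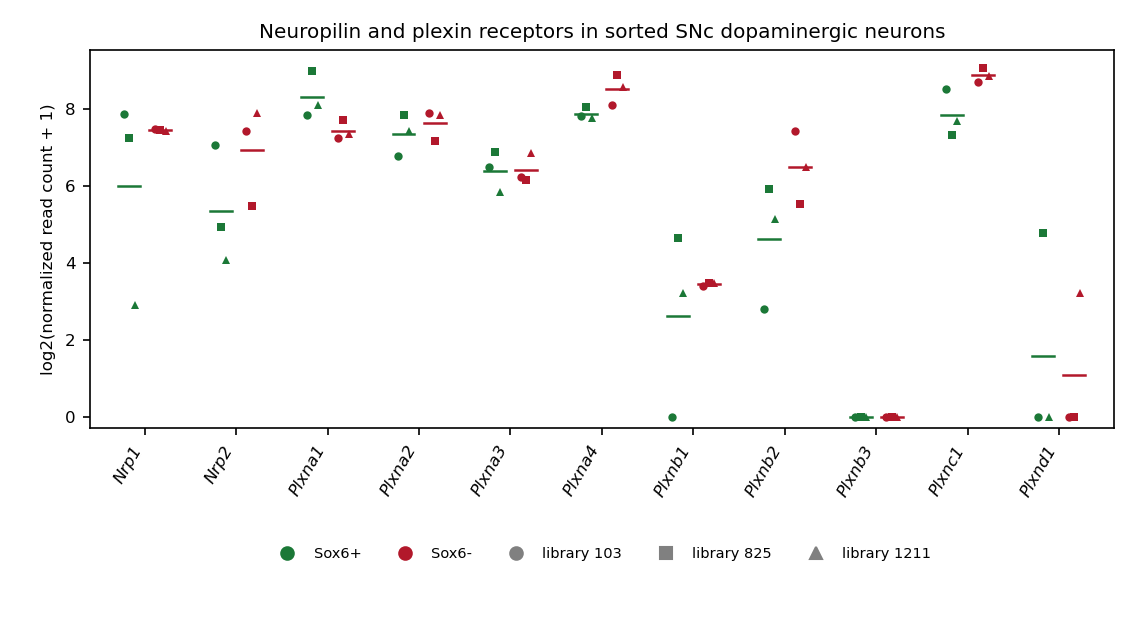
Values of the 2 neuropilin and 9 plexin genes in each library, as log2(normalized read count + 1), with Sox6+ in green left of Sox6- in red, marker shapes for library numbers and a line at each group's mean on the log2 scale. Plxna1 is higher and Plxna4 and Plxnc1 lower in all Sox6+ libraries, and the Nrp1 mean of the Sox6+ group is lowered by library 1211.

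Divided by exon length, levels could also be set against each other between genes. Sema6d was the highest ligand, with 85.0 ± 40.7 normalized counts per kilobase of exon in Sox6+ neurons and 48.3 ± 12.1 in Sox6- neurons (SD, n = 3 each). Sema4a followed at 19.9 ± 3.32 per kilobase in Sox6+ and 40.4 ± 14.0 in Sox6- neurons, and Sema5a had 10.9 ± 5.57 in Sox6+ and 30.9 ± 14.0 in Sox6- neurons. In Sox6+ neurons Sema4f, Sema6b and Sema4g, with means of 12.8, 11.9 and 11.4, lay above Sema5a by less than its SD. In Sox6+ neurons Sema6d thus stood above the next ligand by more than the spread between libraries, while in Sox6- neurons Sema6d and Sema4a differed by less than their SDs, and Sema4a was the higher in Sox6- library 1211.

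Among receptors, Plxna1 had 37.2 ± 16.7 per kilobase in Sox6+ neurons and 19.2 ± 3.54 in Sox6- neurons, and Plxnc1 had 29.1 ± 13.0 in Sox6+ and 56.4 ± 7.23 in Sox6- neurons. In Sox6+ neurons these receptors differed by less than their SDs, and in Sox6- neurons by more. Plxna4 had 16.7 ± 1.81 per kilobase in Sox6+ and 26.6 ± 6.95 in Sox6- neurons. Plxnc1 was the highest receptor in all 3 Sox6- libraries and in Sox6+ library 103, whereas Plxna1 was the highest in Sox6+ libraries 825 and 1211. At the low end, the class 3 ligand Sema3a averaged 0.4 per kilobase in Sox6+ neurons, against 6.53 in Sox6- neurons, and Sema3f averaged 0.867 in Sox6+ neurons, against 9.88 in Sox6- neurons.

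**Figure D4:**
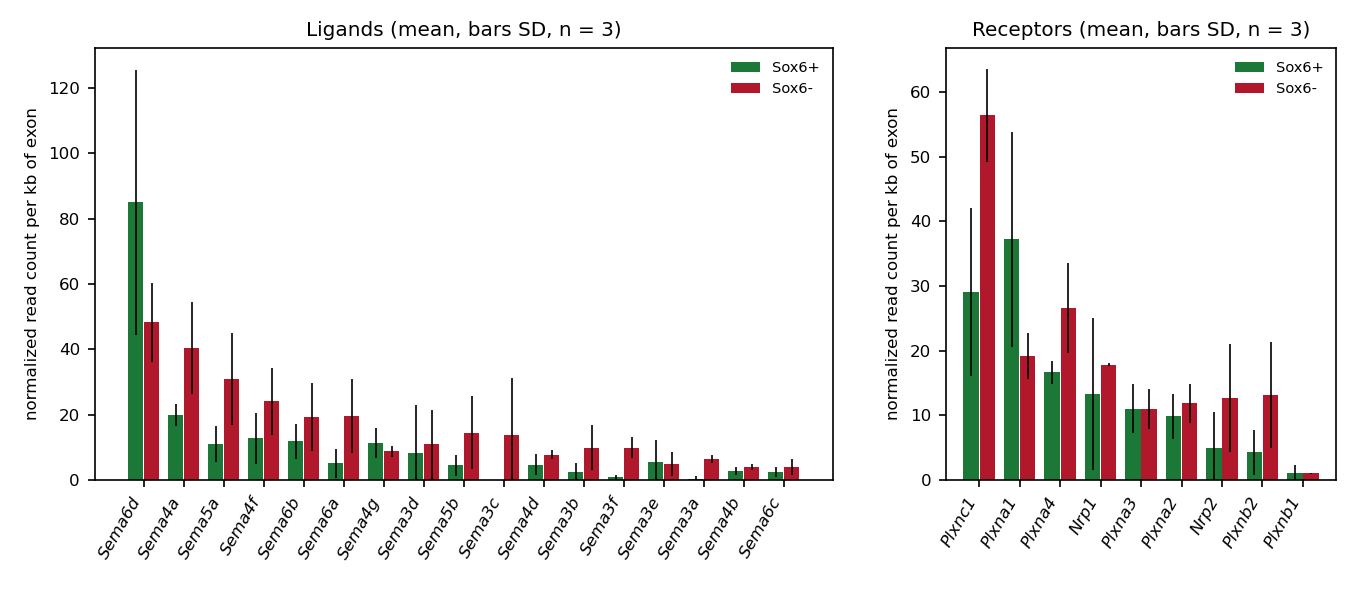
Mean normalized read count per kilobase of exon in Sox6+ (green) and Sox6- (red) neurons, ligands on the left and receptors on the right, ordered by the mean over all libraries. Error bars are SD over 3 libraries, cut at 0, and Sema6d is the tallest ligand in both groups, while Plxnc1 leads in Sox6- neurons and Plxna1 in Sox6+ neurons.

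Promoter windows were read for the members, since several had lower values together. RefSeq windows on GRCm38.p6, from 250 bases before to 50 after an annotated start, were found for 26 of the 31 members, with 37 windows in all. Shown are those of Sema3a (chr5:13396534-13396833, plus strand), Sema5a (chr15:32244563-32244862, plus strand) and Plxnc1 (chr10:94944796-94945095, minus strand), a secreted ligand, a transmembrane ligand and a receptor that were each lower in all Sox6+ libraries. Capitals mark the GC box, GGGCGG on either strand, which alone of the 3 motifs searched was found in them. The Sema3a window belongs to a start within the gene as GENCODE draws it.
Sema3a: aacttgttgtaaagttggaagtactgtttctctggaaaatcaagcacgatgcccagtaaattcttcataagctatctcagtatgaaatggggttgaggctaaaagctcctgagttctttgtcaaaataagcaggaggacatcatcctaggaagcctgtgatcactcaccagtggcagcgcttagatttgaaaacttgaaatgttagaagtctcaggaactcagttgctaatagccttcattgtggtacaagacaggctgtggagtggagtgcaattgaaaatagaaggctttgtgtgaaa
Sema5a: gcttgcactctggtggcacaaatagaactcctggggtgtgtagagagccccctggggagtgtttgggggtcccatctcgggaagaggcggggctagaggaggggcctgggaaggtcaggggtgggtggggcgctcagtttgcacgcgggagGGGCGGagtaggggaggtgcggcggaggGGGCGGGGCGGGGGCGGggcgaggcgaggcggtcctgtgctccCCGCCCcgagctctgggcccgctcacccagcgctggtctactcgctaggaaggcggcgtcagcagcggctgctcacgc
Plxnc1: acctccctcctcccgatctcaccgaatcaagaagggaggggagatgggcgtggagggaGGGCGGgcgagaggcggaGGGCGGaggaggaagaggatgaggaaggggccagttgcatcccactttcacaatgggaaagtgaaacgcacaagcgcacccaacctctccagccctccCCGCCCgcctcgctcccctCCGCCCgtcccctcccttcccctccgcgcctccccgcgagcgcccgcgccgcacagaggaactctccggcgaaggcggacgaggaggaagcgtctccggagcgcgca

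The windows differ in make-up. That of Sema3a has 41.3% G and C, 2 CpG dinucleotides and no GC box. Those of Sema5a and Plxnc1 have 71.3% and 69.0% G and C, 23 and 30 CpG, and 5 and 4 GC boxes, counting overlapping matches. A GC box was in 27 of the 37 member windows, against 35.7% of all 32851 windows. The member windows were also richer in G and C, with a median of 63.7% and 15 CpG, against 52.7% and 7 CpG in all windows. The core letters AACAAT that Sox proteins bind, on either strand, were in the windows of Sema4d and Plxnb3 and of no other member, against 10.7% of all windows. No member window held TATAAA on either strand, which 13.6% of all windows do. These matches describe letters in a short window and are neither binding sites nor causes.

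Other genes of the pathway were taken from a list of 54 co-receptors, neuropilin-binding growth factors and intracellular effectors, of which 44 were tested. None passed over all genes with limma without a block or with edgeR, and DESeq2 called Rhoa and Rnd3. The list had 28 positive and 16 negative log2 differences and a median of 0.18. At an unadjusted limma p under 0.05 there were 5 genes, 3 higher and 2 lower in Sox6+ neurons, a share near the 11.4% of all tested genes, so the values that follow describe single genes. These were effectors and 1 receptor.

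Rhoa, the GTPase that drives growth cone collapse, had 1334, 1349 and 1506 in Sox6+ libraries 103, 825 and 1211, against 988, 989 and 953 in the Sox6- libraries. The libraries of each group lay close together and the groups did not overlap, with a log2 difference of 0.51 (SE 0.15) and an adjusted p of 0.231 (limma). Rnd2 and Rnd3, atypical GTPases that bind plexins or oppose Rhoa, were lower in all Sox6+ libraries. Rnd2 averaged 393 ± 83.8 in Sox6+ neurons and 667 ± 115 in Sox6- neurons, and Rnd3 averaged 58.6 ± 8.41 in Sox6+ and 245 ± 172 in Sox6- neurons (SD, n = 3 each). Their adjusted p were 0.265 and 0.278 (limma). Rap1b, a GTPase that plexins inactivate, averaged 4140 ± 220 in Sox6+ neurons and 2974 ± 975 in Sox6- neurons. The integrin subunit Itgb1, through which Sema7a can act, averaged 1622 ± 564 in Sox6+ and 1013 ± 360 in Sox6- neurons, with overlap in both.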

How the data were processed

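Poly(A) RNA of papain-dissociated, sorted neurons was sequenced from stranded TruSeq libraries, per the labels' protocols. FastQC, cutadapt, STAR, HTSeq and DESeq2, with mm10 and GRCm38, are named in the submitters' processing notes; the sources used here do not give versions, settings or strand use. The table the authors deposited holds a normalized signal per library (read count over size factor) and their DESeq2 test, whose log2 fold change (Sox6- over Sox6+), score and p-value are theirs. Values above 0 were whole multiples of each library's smallest value (within 0.01) in 100.0% of cases in each library. The count test ran on these reads, and the edgeR call was 1 gene, that of DESeq2 387, among 13175. A single read was worth 0.9241 to 1.1387, and 1.0071 in Sox6- library 825, too near 1 for an automatic check.

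Sox6+ minus Sox6- was tested on log2(value + 1) by limma (trend and robust moderation, 2-sided, no block) for genes averaging 10 or more, with Benjamini-Hochberg adjustment at 0.05. Differences are on this scale, which can understate the fold of a low value. A library at 0 can also weigh heavily on it and enlarge a difference. That of Sema3d was -3.18, against -0.38 with edgeR, and that of Sema3a was -5.12, against -3.98 with edgeR. The fit was also run on counts simulated without an effect of library number, and no result here rests on that run. Members and lists were chosen with earlier results of these data known. The naming rule gave library values to tested members with non-overlapping groups or an unadjusted p under 0.05 and to the 3 highest ligands and receptors per kilobase; those of Sema3b, Sema3c, Sema3d, Sema3e, Sema5b, Plxnb2, Plxnd1, Nrp1 and Nrp2 were added after their values were seen. Of the pathway list, Vegfd and Arhgap35 are in the table under older symbols (Figf and Grlf1). Positions and exon lengths come from GENCODE M21 (GRCm38). No pair of libraries was a copy of another (chi-square per gene at least 34.4). The software was limma 3.58.1, DESeq2 1.42.0 and edgeR 4.0.16 in R 4.3.3, and pandas 2.3.3 and scipy 1.17.1 in Python 3.11.15. Alternatives tried were a block by library number, other pseudocounts (0.5 and 8), filters and normalizations, limma without trend or robust moderation, edgeR, DESeq2, and leaving out each library.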

Additional observations from a re-analysis of the deposited data

How the results depend on the processing

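Of the 26 tested members, 22 kept the sign of their log2 difference under all 17 alternatives. Sema3e, at -0.17, was positive with quantile normalization (0.14), edgeR (0.21) and DESeq2 (0.23), and ran from -1.1 to 0.404 when single libraries were left out. Plxna3, at -0.02, gave 0.13 with quantile normalization, 0.008 with DESeq2 and -0.25 to 0.26 without 1 library. Plxnb1, at -0.83, gave 0.0057 with quantile normalization, 0.077 with edgeR, 0.11 with DESeq2, and -1.84 to 0.48 without 1 library. Nrp1, at -1.45, ran from -2.38 to 0.11, the last without Sox6+ library 1211.

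No ligand passed in the main test and 1 (Sema5a, adjusted p = 0.0262) with the library number as a replicate block, but none with edgeR and that block (Sema5a adjusted p = 0.0944, 57 of all genes). The labels do not say what the numbers stand for, so the main fit did not pair the samples by them. Deviations from the group means of same-numbered libraries correlated at 0.268, 0.172 and 0.0789 for 103, 825 and 1211 over 13175 genes. Each library correlated best with its own number, and the libraries numbered 103 had the lowest chi-square per gene of all pairs (34.4). The main fit thus sets aside a likeness between same-numbered libraries, which was weak for 1211. With the block 267 of all genes passed, against 40 without, and 1 pathway gene, Itgb1. The count over all genes was 69 with pseudocount 8, 21 with no filter, 69 with quantile normalization, 24 without trend and robust moderation, 1 with edgeR and 387 with DESeq2, and it ran from 1 to 161 when single libraries were left out, without Sox6- library 1211 and without Sox6+ library 103. Receptors past the threshold were 0 to 1 over libraries left out (Plxnc1, without Sox6+ library 103), and DESeq2 called 2 pathway genes. The ligand median was -0.99 with pseudocount 8, -1.0 with quantile normalization, -0.94 with edgeR and -0.92 with DESeq2, and ran from -1.57 to -1.04 over libraries left out. The receptor median was -0.44 with edgeR and -0.42 with DESeq2. The causes were not tested. Sema3a, Sema3c and Sema3f held 0 to 18 reads in the Sox6+ libraries together, so depth limits their folds.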
